A study of Mus musculus with 8 samples.

Results

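miR-103 and miR-107 are a pair of near-identical microRNAs (miRNAs), and both were higher in the livers of diabetic db/db mice than in those of db/+ controls. They are 2 of the 567 mouse miRNAs on the array and were taken by name, as every non-control spot labelled mmu-miR-103 or mmu-miR-107. Together they have 4 of the 1672 mouse miRNA probes, 2 for each miRNA, and each probe is printed 10 times on an array, which gives 40 spots per array. The series compared whole liver from 4 db/db mice with whole liver from 4 db/+ mice, each animal on its own 1-colour array with 100 ng of Cy3-labelled total RNA. The db/db mouse carries a mutant leptin receptor gene on both chromosomes and becomes obese and insulin resistant, and the db/+ control carries the same allele on one chromosome. A label gives the background as C57BL/KsJ, and the labels give no age, sex or treatment for the animals. In whole tissue, fewer cells of a type and less RNA per cell cannot be told apart.

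miRNAs are short RNAs that guide silencing proteins to messenger RNAs, mainly by pairing of their seed, bases 2 to 8, with the target. miR-103 and miR-107 are made from introns of pantothenate kinase genes, whose proteins start the synthesis of coenzyme A. In the mouse they are known to lower insulin sensitivity in liver and fat, and caveolin-1, an organiser of the insulin receptor at the cell membrane, is a known target.

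The mature sequences are shown first because the array has to tell them apart by a single base. They are from RefSeq (GRCm38.p6), with the seed in capitals.
miR-103-3p: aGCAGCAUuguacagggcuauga
miR-107-3p: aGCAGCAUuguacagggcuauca
Both have 23 bases, of which 22 are the same. The difference is G22C, with miR-103 first and positions counted from 1 at the 5′ end, so the seeds are identical. Of the 1679 mature mouse miRNAs in the RefSeq table, these 2 alone carry the seed GCAGCAU.

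The precursor hairpins show how one miRNA has several genes. In RefSeq, miR-103 is made from 2 loci and miR-107 from 1, and the capitals mark the mature arm.
Mir103-1: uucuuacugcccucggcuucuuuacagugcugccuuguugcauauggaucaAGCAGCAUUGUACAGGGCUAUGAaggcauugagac
Mir103-2: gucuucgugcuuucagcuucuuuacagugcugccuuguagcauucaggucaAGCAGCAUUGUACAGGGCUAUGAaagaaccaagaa
Mir107: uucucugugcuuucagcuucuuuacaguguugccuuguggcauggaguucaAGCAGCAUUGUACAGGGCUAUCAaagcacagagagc
In GRCm38.p6, Mir103-1 lies at chr11:35782396-35782481 on the plus strand, within Pank3. Mir103-2 lies at chr2:131288052-131288137 on the plus strand, within Pank2. Mir107 lies at chr19:34820687-34820773 on the minus strand, within Pank1. The hairpins of miR-103 are both 86 bases long and match at 69 of these positions, yet their mature arms are the same, so the array signal of miR-103 is the sum over both loci.

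The array's probes differ in how much of the miRNA they cover. In the array files (mm9) the miR-103 probe A_54_P1341 spans chromosome 11, 35595954 to 35595971, which is 18 bases, and A_54_P1342 spans 35595955 to 35595971, which is 17 bases. The miR-107 probe A_54_P1420 spans chromosome 19, 34895190 to 34895209, which is 20 bases, and A_54_P1421 spans 34895190 to 34895208, which is 19 bases. The probes of a miRNA share their 3′ end, as did the probes of all 362 miRNAs on the array for which this could be read from coordinates and strand. If that shared end is the last base of the miRNA, the capitals below are the bases covered, and position 22 lies inside all 4 spans.
A_54_P1341: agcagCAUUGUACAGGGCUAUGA
A_54_P1342: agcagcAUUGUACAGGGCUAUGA
A_54_P1420: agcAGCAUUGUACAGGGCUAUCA
A_54_P1421: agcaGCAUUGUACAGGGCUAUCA
A probe for one miRNA may therefore also bind the other, and how much of the signal is shared was not tested. Levels of different probes are not comparable with one another, since probes differ in affinity.

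All 8 arrays lay on 1 slide and were scanned together, with the db/db arrays in slide row 1 and the db/+ arrays in slide row 2, so row and strain cannot be told apart. The brightness of the db/+ arrays differed 26.8-fold between replicates 1 and 4, and that of the db/db arrays at most 1.26-fold. The liver miRNAs miR-122, miR-192 and miR-194 were detected on all 8 arrays. Of 5 leukocyte miRNAs all were detected on some array, and their summed scaled signal was 377 to 484 in db/+ and 201 to 285 in db/db. Among them, miR-142-3p and miR-223 were detected on all 8 arrays. miR-142-5p was detected on 2 db/+ arrays and miR-150 and miR-155 on 1 each, with 0 db/db arrays for each. Of 6 miRNAs of bile duct epithelium all were detected on some array, and their sum was 76.8 to 115 in db/+ and 139 to 190 in db/db. Of these, miR-200a, miR-200b and miR-203 were detected on 3 db/+ and 4 db/db arrays each. miR-141, miR-429 and miR-200c were detected on 2, 2 and 1 db/+ arrays and on 0, 1 and 1 db/db arrays. The sums of the liver miRNAs and of the endothelial, erythroid, and stellate and smooth muscle miRNAs overlapped between strains. The 3 muscle and 3 pancreas miRNAs examined were detected on no array, and of 3 neural miRNAs 1 was detected, miR-137 on 2 db/+ arrays. The part of these cell types in the results below was not tested.

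miR-103 and miR-107 were detected on every array, so neither depends on the floor set for dim miRNAs. Before any scaling, the signal of miR-103 was 1578, 195, 453 and 62.8 on db/+ replicates 1 to 4, and 343, 464, 506 and 483 on db/db replicates 1 to 4. miR-107 was at 2998, 444, 1049 and 172 in db/+ and at 848, 1248, 1230 and 1296 in db/db. The unscaled values of the strains overlapped widely, since the signal ranged 25.1-fold for miR-103 and 17.4-fold for miR-107 among the db/+ arrays, against 1.48-fold and 1.53-fold among the db/db arrays. Each array was therefore divided by a factor, and levels are given below as log2 of that scaled signal. The factor was the array's median signal of the 89 miRNAs that all 8 arrays detected, relative to the geometric mean of these medians.

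On that scale miR-103 was at 8.13, 8.43, 8.17 and 8.22 on db/+ replicates 1 to 4 and at 8.66, 8.77, 8.99 and 8.83 on db/db replicates 1 to 4. The lowest db/db array lay 0.23 above the highest db/+ array. The means were 8.24 ± 0.14 in db/+ and 8.81 ± 0.14 in db/db (SD, n = 4 each), and miR-103 rose 1.49-fold (log2 fold change 0.58 ± 0.14, SE, limma adjusted p = 0.0220).

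miR-107 was at 9.06, 9.62, 9.38 and 9.68 on db/+ replicates 1 to 4 and at 9.97, 10.2, 10.27 and 10.25 on db/db replicates 1 to 4. Its strains were separated by a gap of 0.29, and the db/+ arrays spanned 0.62 against 0.31 for the db/db arrays, with db/+ replicate 1 the lowest. The means were 9.43 ± 0.28 in db/+ and 10.17 ± 0.14 in db/db (SD, n = 4 each), and miR-107 rose 1.67-fold (log2 fold change 0.74 ± 0.17, SE, limma adjusted p = 0.0164).

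**Figure D1:**
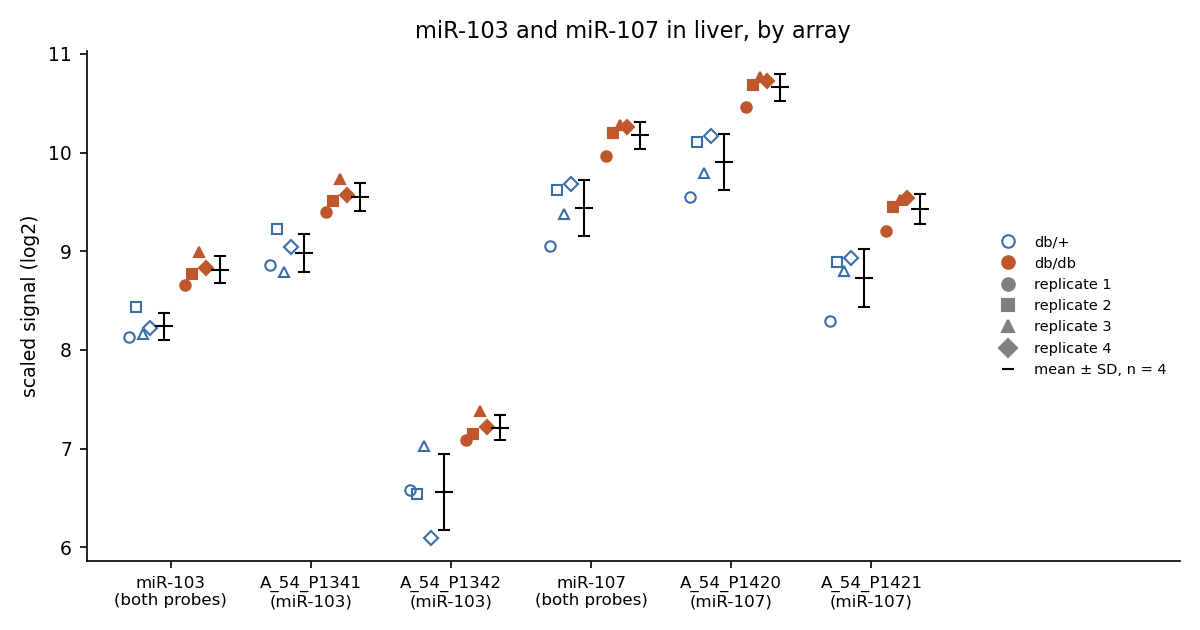
Scaled signal (log2, vertical axis) of miR-103, miR-107 and their 4 probes on each array, with open blue symbols for db/+, filled orange symbols for db/db, a symbol shape per replicate and black bars for mean ± SD over 4 arrays. For each miRNA and each probe all 4 db/db arrays lie above all 4 db/+ arrays, by the least for A_54_P1342, and heights of different probes are not comparable.

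The test was limma's, fitted to the 127 miRNAs that every array of 1 or both strains detected, with p-values adjusted over all 127 (Benjamini-Hochberg) and a threshold of 0.05. Both members passed it as higher, where 9.45% of the tested miRNAs did so, 5.51% passed as lower and 15.0% in either direction. Strains that do not overlap were seen for 22.8% of the tested miRNAs, and for 15.7% with db/db higher. The median of all 127 log2 fold changes was 0.15, so the members lay 0.42 and 0.59 above it. A miRNA could enter the 127 through 1 strain alone, which favours a higher level in that strain. Since db/+ replicate 4 detected only 91 miRNAs, nearly all that entered so did it through db/db, which tilts the shares and the median toward db/db. Among the 89 miRNAs detected on all 8 arrays the median was 0.098, and the members lay 0.48 and 0.64 above it. Of those 89, 8 passed as higher and 6 as lower. A log2 fold change larger than that of miR-103 was found for 16 of the 127 miRNAs, and one larger than that of miR-107 for 10.

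The pairs of arrays that share a slide column, a position given in the file headers, all showed the same direction. Slide column and replicate number are the same on every array. The titles of db/+ replicates 1 and 2 carry no number, and these numbers were given in the order listed. The pairs in columns 1 and 2 are therefore not same-numbered by label. From column 1 to 4, db/db minus db/+ was 0.53, 0.33, 0.83 and 0.61 for miR-103. For miR-107 the same differences were 0.91, 0.57, 0.90 and 0.57. With the slide column as a block, an alternative added after seeing the data, miR-107 kept its call (limma adjusted p = 0.0188) and miR-103 did not (limma adjusted p = 0.0575).

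Each of the 4 probes was also tested on its own, in a fit over the 271 probes of the tested miRNAs, and 3 of the 4 passed as higher in db/db. Among all these probes 6.64% passed as higher and 9.23% passed in either direction. All 4 probes showed strains that do not overlap, as did 11.8% of the 271 with db/db higher. The probes of a miRNA share their target and are not independent of one another. With the replicate block 0 of the 4 probes passed, and with the slide column as a block 2 did, A_54_P1341 being lost (limma adjusted p = 0.0994).

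For miR-103, the longer probe A_54_P1341 was at 8.86, 9.23, 8.79 and 9.05 on db/+ replicates 1 to 4 and at 9.39, 9.51, 9.74 and 9.57 on db/db replicates 1 to 4. Its log2 fold change was 0.57 ± 0.12 (SE, limma adjusted p = 0.0317). The shorter probe A_54_P1342 was at 6.58, 6.54, 7.03 and 6.09 in db/+ and at 7.09, 7.15, 7.38 and 7.22 in db/db. This probe missed the threshold, at 0.65 ± 0.19 on the log2 scale (SE, limma adjusted p = 0.0955). The gap between its strains was only 0.06, set by db/+ replicate 3, and its db/+ arrays spread over 0.94 on the log2 scale against 0.30 for the db/db arrays. The value of this probe moved widely with the processing, from 0.19 with normexp background correction and 0.20 with raw median intensities to 0.81 without db/+ replicate 3, and without db/+ replicate 4 it was 0.49. Of the fits that leave out 1 array, the one without db/+ replicate 3 passed (limma adjusted p = 0.0222). On db/+ replicate 4, the dimmest array, none of the 10 spots of A_54_P1342 was well above background and the spots had a coefficient of variation of 27.0%.

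For miR-107, the longer probe A_54_P1420 was at 9.55, 10.1, 9.79 and 10.17 on db/+ replicates 1 to 4 and at 10.46, 10.68, 10.77 and 10.73 on db/db replicates 1 to 4. Its log2 fold change was 0.76 ± 0.16 (SE, limma adjusted p = 0.0266). The shorter probe A_54_P1421 was at 8.29, 8.89, 8.80 and 8.94 in db/+ and at 9.21, 9.45, 9.52 and 9.54 in db/db, a log2 fold change of 0.70 ± 0.16 (SE, limma adjusted p = 0.0394). db/+ replicate 1, the brightest array before scaling, was the lowest db/+ array on both probes of miR-107. All spots of A_54_P1341, A_54_P1420 and A_54_P1421 were well above background on all 8 arrays. Over all probes and arrays the spots had a median coefficient of variation of 5.45%, and 8 of the 320 spots were left out as outliers. Leaving out db/db replicate 2, 3 or 4 left 0 of the 4 probes past the threshold.

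How far the members track each other was read from ratios within an array, which the factor of that array cannot change. The log2 ratio of miR-107 to miR-103 was 0.93, 1.19, 1.21 and 1.46 on db/+ replicates 1 to 4 and 1.31, 1.43, 1.28 and 1.42 on db/db replicates 1 to 4. db/+ replicate 1 had the lowest ratio of the 8 arrays and db/+ replicate 4 the highest, and the db/db arrays lay between them. The means were 1.20 ± 0.22 in db/+ and 1.36 ± 0.08 in db/db (SD, n = 4 each), a difference of 0.16 that missed the threshold (two-sided exact permutation p = 0.2, where 4 against 4 arrays allow no p under 0.0286). The size of the ratio itself is set in part by probe affinity and does not show which miRNA is more abundant.

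**Figure D2:**
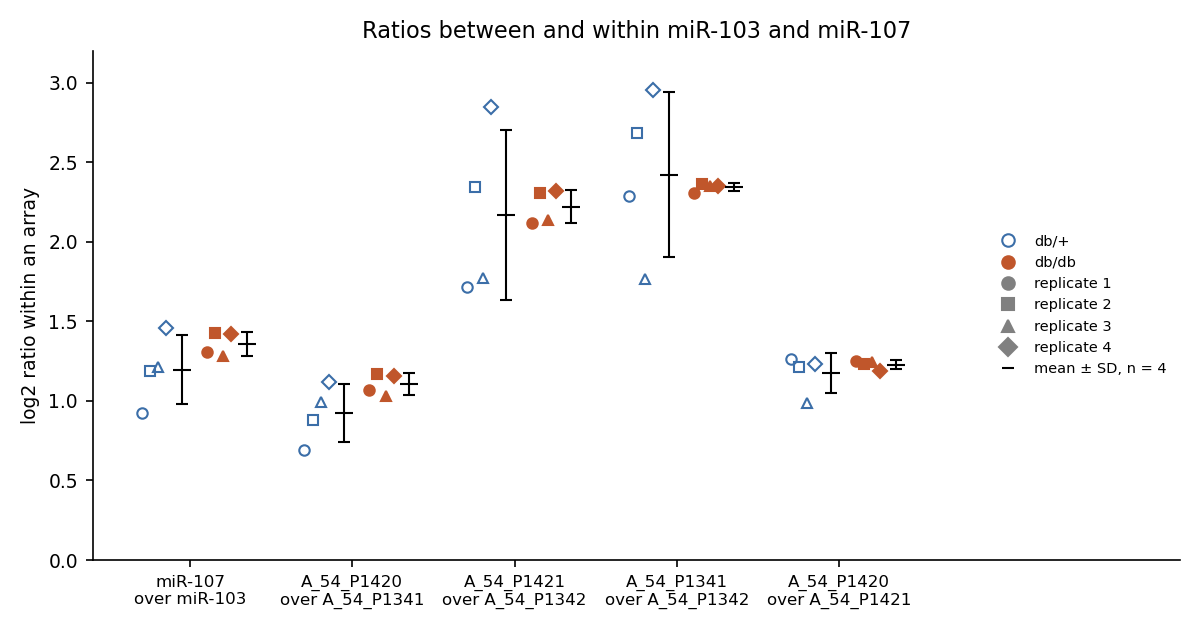
Log2 ratio within an array (vertical axis) for miR-107 over miR-103, for the longer and the shorter probes of the 2 miRNAs, and for the longer over the shorter probe of each miRNA, with symbols as in the plot of levels and black bars for mean ± SD over 4 arrays. The db/db arrays cluster closely in every ratio, and the db/+ arrays scatter widely, most for the ratios that contain A_54_P1342.

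Some of the alternatives changed that call. The ratio difference was 0.25 without db/+ replicate 4, 0.33 with normexp background correction and 0.34 with raw median intensities, and in each the exact permutation p was 0.0286, the smallest the design allows. Without db/+ replicate 1 it was 0.07 (exact permutation p = 0.4). In the authors' deposited log values, whose base is not stated, miR-107 minus miR-103 was 0.214, 0.287, 0.280 and 0.139 on db/+ replicates 1 to 4. The same difference was 0.303, 0.323, 0.308 and 0.317 on db/db replicates 1 to 4, and all 4 lay above all db/+ values (exact permutation p = 0.0286). The ratio of db/+ replicate 4 was the highest of its strain in the background-subtracted scanner values and the lowest in the deposited ones. Raw median intensities keep the background, which on db/+ replicate 4 was 98.5 at A_54_P1341 and 94 at A_54_P1342. The call on whether miR-107 rose more than miR-103 thus differed between these settings, and the cause was not tested.

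The probe pairs gave the same picture in more detail. The longer probes, A_54_P1420 over A_54_P1341, differed between strains by 0.18 (exact permutation p = 0.114), and the shorter probes, A_54_P1421 over A_54_P1342, by 0.05 (exact permutation p = 0.943). Within miR-103, A_54_P1341 over A_54_P1342 was 2.28, 2.68, 1.76 and 2.95 on db/+ replicates 1 to 4 and 2.30 to 2.36 in db/db. Within miR-107, A_54_P1420 over A_54_P1421 was 1.26, 1.22, 0.99 and 1.23 on db/+ replicates 1 to 4 and 1.19 to 1.25 in db/db. The ratio of the probes of a single miRNA thus spanned 1.19 on the log2 scale among the db/+ arrays for miR-103 and 0.27 for miR-107. The first of these includes db/+ replicate 4, where A_54_P1342 was not well above background, and without that array it was 0.92. Among the db/db arrays the span was 0.06 for each miRNA. None of the 5 ratios passed after Benjamini-Hochberg adjustment over them (adjusted p from 0.5 to 0.943, from exact permutation tests). With 4 against 4 arrays a ratio could not have passed alone, since the smallest adjusted p it allows is 0.143 for 1 ratio and 0.0714 each for 2.

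The rise of both miRNAs kept its direction under every alternative that was run. For miR-103 the log2 fold change lay between 0.45 and 0.64 and for miR-107 between 0.61 and 0.93, leaving aside the deposited log values, which are on another scale. Relative to the median of all tested miRNAs, which itself moved with the scaling and background correction, miR-103 lay 0.38 to 0.67 higher and miR-107 0.52 to 1.00 higher. The adjusted p was less stable. Leaving out db/db replicate 2, 3 or 4 ended the call of miR-103 (limma adjusted p = 0.0731, 0.0909 and 0.0621) and that of miR-107 (limma adjusted p = 0.0593, 0.0643 and 0.0541), and leaving out db/+ replicate 1 ended that of miR-103 (limma adjusted p = 0.0617). Scaling to the 75th percentile ended both calls (limma adjusted p = 0.187 and 0.118). That scaling moves every miRNA of an array by the same factor, so it leaves the distance to the median of all miRNAs as it was. Without scaling neither passed (limma adjusted p = 0.993 each).

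**Figure D3:**
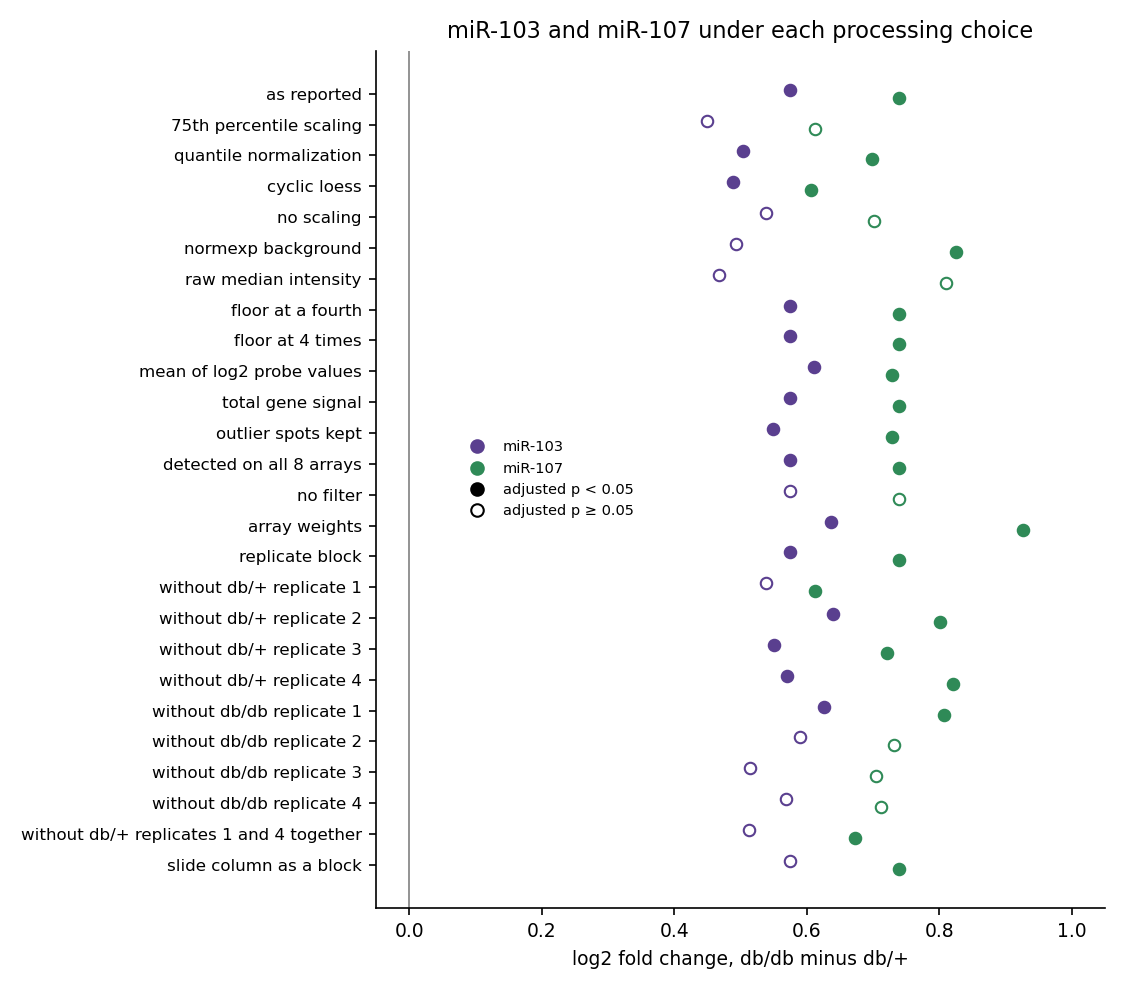
Log2 fold change, db/db minus db/+ (horizontal axis), of miR-103 (purple) and miR-107 (green) as reported and under each alternative that gives a log2 value, with filled symbols for a limma adjusted p under 0.05. All values lie above 0, from 0.45 to 0.64 for miR-103 and from 0.61 to 0.93 for miR-107, while the calls come and go.

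The authors' deposited log values gave miR-103 scores of 1.97, 1.88, 1.98 and 1.93 on db/+ replicates 1 to 4 and of 2.02, 2.08, 2.08 and 2.03 on db/db replicates 1 to 4. For miR-107 the deposited scores were 2.19, 2.17, 2.26 and 2.07 in db/+ and 2.32, 2.40, 2.39 and 2.35 in db/db. In these values too the strains did not overlap for either miRNA, and neither passed limma over the 139 miRNAs listed (adjusted p = 0.157 and 0.0731). SAM, the permutation method the series names, called miR-107 and not miR-103 when its fudge factor was chosen by the smallest variation of its score. It called both with the fudge factor at the 5th percentile of the standard errors, a setting added after seeing the data.

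A preset list of other miRNAs with the letters AGCAGC near their 5′ end, known as the miR-15 and miR-107 group, was taken as relatives by sequence. Their sequences are shown to set the position of these letters, in capitals, beside that in miR-103 and miR-107.
miR-103-3p: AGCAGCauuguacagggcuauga
miR-107-3p: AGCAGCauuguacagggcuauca
miR-15a-5p: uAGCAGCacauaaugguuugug
miR-15b-5p: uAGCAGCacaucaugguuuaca
miR-16-5p: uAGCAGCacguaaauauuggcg
miR-195a-5p: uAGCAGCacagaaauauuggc
miR-322-5p: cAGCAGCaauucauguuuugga
miR-497a-5p: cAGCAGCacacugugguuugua
miR-503-5p: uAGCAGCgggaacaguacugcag
AGCAGC starts at base 1 in miR-103 and miR-107 and at base 2 in the other 7, so their seeds are shifted by 1 base. The letters were searched at starts 1 to 3 on the given strand of each mature sequence, and 13 of the 1679 mature mouse miRNAs, or 0.774%, hold them. Among these 13, miR-195b, miR-6342, miR-6353 and miR-6419 are not on the list.

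Of the 7 relatives on the array besides the members, 6 were tested and none passed, against 15.0% of all tested miRNAs. Their median log2 fold change was 0.02, beside 0.15 over all 127. All of the tested relatives were detected on all 8 arrays, and over the 89 such miRNAs the median was 0.098. By probe, 1 of their 12 probes passed, beside 9.23% of all probes tested. It was A_54_P1005 of miR-15b, at 7.47, 7.67, 7.63 and 7.60 on db/+ replicates 1 to 4 and at 7.90, 8.00, 8.17 and 8.13 on db/db replicates 1 to 4. The strains did not overlap on this probe (log2 fold change 0.45 ± 0.09, SE, limma adjusted p = 0.0263), and its p was smaller than those of the 4 probes of miR-103 and miR-107. The other probe of miR-15b, A_54_P1006, had 0.34 ± 0.32 (SE, limma adjusted p = 0.547). miR-16 and miR-15a, which are known to restrain the cell cycle, had log2 fold changes of 0.01 ± 0.15 and -0.30 ± 0.17 (SE). They share a transcript, but miR-16 has 2 loci in RefSeq, so its signal is the sum over both. Over both probes miR-15b had 0.35 ± 0.24, with db/+ arrays from 8.26 to 9.26 that enclosed 3 of the 4 db/db arrays at 8.94 to 9.28. The neighbours miR-195 and miR-497 on chromosome 11 had 0.02 ± 0.21 and 0.15 ± 0.21. miR-322, from chromosome X, had the lowest value of the group, -0.51 ± 0.24 (limma adjusted p = 0.191). Its db/db arrays, at 6.01 to 6.20, lay below 3 db/+ arrays and above db/+ replicate 3, which was at 5.89, and without that array 1 of the 6 relatives passed. miR-503 was detected on 1 of the 8 arrays and was not tested, and miR-424 of the list has no probe of that name. A difference between the members and these relatives was not tested as such.

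Of 21 other miRNAs tied to insulin action and obesity, 15 were tested, 3 rose and 1 fell, where 9.45% of all tested miRNAs rose and 5.51% fell. The median log2 fold change was 0.10, beside 0.15 over all 127. Of these 15, 11 were detected on all 8 arrays and 4 entered the test through db/db alone, with 3 of 4 db/+ arrays detecting them. miR-34a, a target of p53 known to repress the deacetylase Sirt1, rose by a log2 fold change of 2.54 ± 0.26 (SE, limma adjusted p = 1.7e-04). miR-378, from an intron of the coactivator gene Ppargc1b, rose by 1.09 ± 0.20 (limma adjusted p = 0.0063). miR-200b, an epithelial miRNA, rose by 0.81 ± 0.16 (limma adjusted p = 0.0079), but it is one of those 4, so the filter favoured a higher db/db level. In the fit of miRNAs detected on all 8 arrays 3 of the list passed. miR-223, made mainly in myeloid cells, fell by 0.74 on the log2 scale (limma adjusted p = 0.0434). miR-29c and miR-29b, which are known to repress collagens, had log2 fold changes of -0.51 ± 0.17 and -0.69 ± 0.31 and did not pass (limma adjusted p = 0.086 and 0.185). The other tested miRNAs of the list did not pass.

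**Figure D4:**
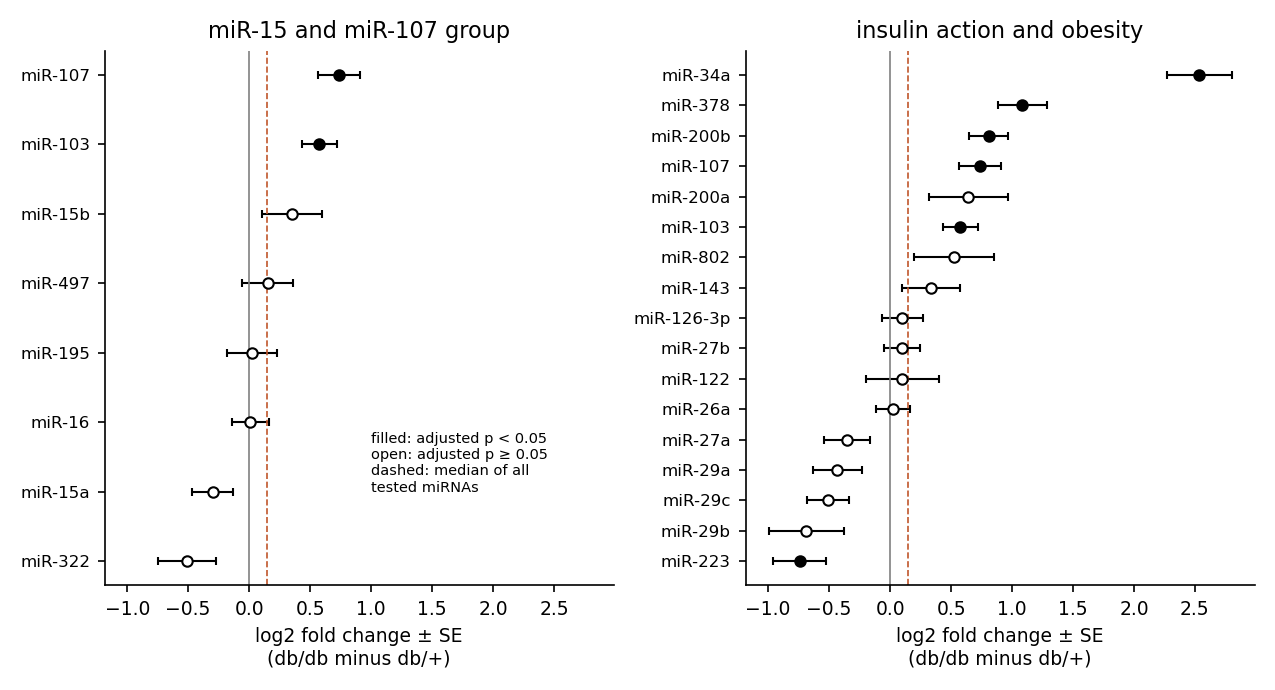
Log2 fold change ± SE, db/db minus db/+ (horizontal axis), of the tested members of the miR-15 and miR-107 group (left) and of the list on insulin action and obesity (right), with filled symbols for a limma adjusted p under 0.05 and a dashed line at the median of all 127 tested miRNAs, 0.15. In the left panel miR-107 and miR-103 are the filled symbols, and the 6 relatives lie between -0.51 and 0.35.

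The miRNAs whose pattern over the 8 arrays was most like the mean of miR-103 and miR-107 were named by Pearson's r of the scaled log2 values, among the 87 other miRNAs detected on all arrays. All points share the arrays and their factors, and a difference between strains by itself raises r, so r is given as a description. miR-378 was the most alike (r = 0.95), and with each strain's mean taken out its r was 0.72. miR-34a followed with r = 0.92, then miR-31 with 0.87, and these fell to 0.39 and 0.10 once strain means were taken out. let-7d and let-7c, of the let-7 family, had r = 0.87 and 0.86 and had 0.78 and 0.75 within strains, although neither passed the test between strains (log2 fold changes of 0.35 ± 0.16 and 0.40 ± 0.18, limma adjusted p = 0.194 and 0.182). Values as high within strains were common, since 14 of the 87 candidates exceeded let-7d there, the highest being miR-16 at 0.90. miR-140*, the other arm of miR-140, had r = 0.82, and 0.09 within strains. miR-103 and miR-107 had r = 0.94 with each other over the 8 arrays and 0.69 with strain means taken out. These are not directly comparable with the values above, which were taken against the mean of both members.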

How the data were processed

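Per the file headers, the authors extracted spot intensity values with version 9.5.3.1 of Agilent's Feature Extraction. They were background-subtracted with spatial detrending, and not scaled between arrays. The series' value table equals the raw median intensity of each spot. The authors also deposited a log score per miRNA for 139 miRNAs, described as global median normalized, base not stated. Replicates are separate animals, per the series design. Control and outlier spots were left out, spots averaged per probe and probes per miRNA on the linear scale. Arrays were divided by their median over the miRNAs detected on all 8, relative to the geometric mean of these medians. Values were floored at 4.59 and log2 taken. limma 3.58.1 in R 4.3.3 tested strain, with Benjamini-Hochberg adjustment, two-sided. Ratios were tested by exact permutation over 70 label assignments, or over 24 with the replicate block. The limma fit alone was run on simulated data, with a common spread for all miRNAs and both strains and no differences in array brightness. That run did not test the scaling, the floor, the filter or the averaging of probes. Plots used matplotlib 3.10.9. Named were both members by probe and the listed miRNAs with AGCAGC near the 5′ end. Also named were up to 6 others of the insulin list by smallest p, and the 6 miRNAs most alike. Members and lists were chosen with earlier results of these data known. The number of arrays limits the precision.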

Additional observations from a re-analysis of the deposited data

How the results depend on the processing

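No alternative reversed miR-103, miR-107 or their ratio. miR-103 did not pass with 75th percentile scaling (0.45), no scaling (0.54), normexp (0.49), raw median intensities (0.47), no filter (0.58), without db/+ replicates 1 and 4 (0.51), the deposited log values (0.11 on their scale), SAM (0.58) or the slide column as a block (0.58). miR-107 did not pass with 75th percentile scaling (0.61), no scaling (0.70), raw medians (0.81), no filter (0.74) or deposited log values (0.19 on their scale). The ratio passed by its exact permutation p, which is not adjusted, with normexp (0.33), raw medians (0.34), deposited log values (0.083 on their scale) and without db/+ replicate 4 (0.25). Leaving out 1 array in turn gave 0.51 to 0.64 for miR-103, 0.61 to 0.82 for miR-107 and 0.074 (without db/+ replicate 1) to 0.25 (without db/+ replicate 4) for the ratio. Of those 8 fits, 4 ended the call of miR-103 and 3 that of miR-107. Calls among all miRNAs were 19 as reported (12 higher, 7 lower), 0 without scaling, 2 with normexp, 1 with raw medians, 4 with no filter, 42 with array weights, 3 with deposited log values, 33 with SAM at the 5th percentile and 10 to 21 without 1 array (10 without db/db replicate 2, 12 without db/db replicate 3). The split was 6 higher and 8 lower with the 75th percentile, 9 and 8 with quantile normalization and 10 and 11 with cyclic loess. Of the 4 probes, 3 passed as reported, 0 with 75th percentile scaling, no scaling, raw medians, no filter, the replicate block or without db/+ replicates 1 and 4, 2 with the slide column as a block, 4 with array weights or SAM, 1 with quantile normalization, cyclic loess or normexp, and 0 to 3 without 1 array. Of the relatives besides the members 0 passed as reported, 1 with array weights and 0 to 1 without 1 array. Of the other insulin miRNAs 4 passed as reported, 0 without scaling, 1 with normexp, raw medians, no filter or deposited log values, 2 with outlier spots kept, 3 with miRNAs detected on all 8 arrays, 5 with SAM at the 5th percentile, 6 with quantile normalization, cyclic loess or array weights, and 3 to 4 without 1 array. The cause of these changes was not tested.

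The titles of both strains carry the numbers 3 and 4, and deviations of same-numbered arrays correlated at 0.04 and 0.31 over 127 miRNAs. Differently numbered arrays were not compared, so these values cannot settle whether the numbers pair animals. The replicate number equals the slide column on every array, so the replicate block and the column block are not separate checks. The replicate block, which sets numbers 3 and 4 apart from the other arrays, took the calls of the 4 probes from 3 to 0. With the replicate block miR-103 had 0.58 (limma adjusted p = 0.0423), miR-107 0.74 (limma adjusted p = 0.0211) and the ratio 0.16 (exact permutation p = 0.167). Only 24 permutations exist within that block, too few for a two-sided p under 0.05, so the ratio could not have passed. Scaling to the median over all mouse miRNAs was not run, since that median was not above 0 on every array. A_54_P1342 on the dimmest array is limited by signal over background.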
